A study of Mus musculus with 6 samples.

Results

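The replication machinery analysed here is a list of 50 genes for origin licensing, the replicative helicase, the DNA polymerases, the sliding clamp, strand processing and replication-coupled chromatin assembly. The members were taken by gene symbol from the gene table of bulk RNA-seq of day 3 YFP+ iGCBs, in which all 50 were found among 24499 genes and all 50 passed the filter on low counts. iGCBs are germinal center-like B cells made in vitro from naïve splenic B cells, here with IL-4 at 1 ng/ml on a layer of 40LB cells, fibroblasts of the BALB/c 3T3 line that express CD40L and BAFF and were irradiated at 120 Gy. The cKO libraries came from 3 Eif3e fl/fl Cγ1Cre Rosa26-YFP LSL mice and the control libraries from 3 Cγ1Cre Rosa26-YFP LSL mice, 1 mouse per library. Both groups thus carry the Cre and the YFP reporter and were sorted for YFP on day 3 of the culture. Only the cKO mice carry the floxed *Eif3e* alleles. Cre is expressed from the Cγ1 locus and acts after B cell activation, so the deletion is limited to B cells that switched the locus on. All mice were on the C57BL/6J background, and their age at the time of culture was not given in the sources used here. The comparison asks how loss of *Eif3e*, the gene of 1 of the subunits of initiation factor eIF3, which brings ribosomes to mRNA, changed mRNA levels in these cells.

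DNA replication starts with licensing in G1. The origin recognition complex (ORC) and CDC6 bind DNA and, with CDT1, load the ring-shaped MCM2-7 helicase, while geminin, the product of *Gmnn*, blocks CDT1 once S phase has begun. The kinase CDC7 with its activator DBF4 then helps to turn the loaded ring into the active helicase, which also contains CDC45 and the GINS complex. Polymerase alpha with primase makes the primers, polymerases epsilon and delta extend the leading and lagging strands, and the clamp PCNA, loaded by replication factor C (RFC), keeps them on the DNA. RPA covers single-stranded DNA, FEN1, DNA2, RNase H2 and LIG1 finish the lagging strand, and CAF-1 places histones behind the fork. Germinal center B cells divide rapidly, and these genes are known for high mRNA levels in dividing cells, many of them through E2F factors that act on their promoters.

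To show what lies at the start sites of the members with the largest changes, promoters were taken from a RefSeq table on GRCm38.p6 that covers 250 bases before to 50 bases after each start site. The table held 41 of the 50 members. *Gins1*, *Gins2*, *Gins4*, *Gmnn*, *Mcm4*, *Pole*, *Prim2*, *Rfc2* and *Tipin* had no entry. The printed windows are those of the 2 largest rises and the 2 largest falls among the members that passed the test described below and had an entry, each written 5′ to 3′ on the strand of the gene, with E2F words in capitals. For *Orc2* and *Pold2* the first of 2 listed start sites is shown.
Orc2, chr1:58505060-58505359, minus strand: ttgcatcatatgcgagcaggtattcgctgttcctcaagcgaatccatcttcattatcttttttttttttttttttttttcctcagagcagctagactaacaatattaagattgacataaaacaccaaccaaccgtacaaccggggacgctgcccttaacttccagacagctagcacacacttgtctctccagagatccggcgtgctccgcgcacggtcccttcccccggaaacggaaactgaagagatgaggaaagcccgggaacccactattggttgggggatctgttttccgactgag
Pold2, chr11:5878207-5878506, minus strand: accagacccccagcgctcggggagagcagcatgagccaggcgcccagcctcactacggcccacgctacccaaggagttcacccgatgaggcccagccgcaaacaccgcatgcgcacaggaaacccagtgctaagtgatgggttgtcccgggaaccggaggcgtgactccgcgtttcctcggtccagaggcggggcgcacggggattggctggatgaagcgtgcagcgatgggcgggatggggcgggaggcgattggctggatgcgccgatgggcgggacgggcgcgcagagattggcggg
Cdt1, chr8:122567765-122568064, plus strand: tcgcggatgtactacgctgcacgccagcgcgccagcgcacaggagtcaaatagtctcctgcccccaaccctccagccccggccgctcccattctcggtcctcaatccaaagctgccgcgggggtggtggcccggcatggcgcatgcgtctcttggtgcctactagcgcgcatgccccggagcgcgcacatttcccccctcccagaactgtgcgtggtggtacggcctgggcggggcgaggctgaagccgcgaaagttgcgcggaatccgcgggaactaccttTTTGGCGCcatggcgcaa
Pole2, chr12:69228141-69228440, minus strand: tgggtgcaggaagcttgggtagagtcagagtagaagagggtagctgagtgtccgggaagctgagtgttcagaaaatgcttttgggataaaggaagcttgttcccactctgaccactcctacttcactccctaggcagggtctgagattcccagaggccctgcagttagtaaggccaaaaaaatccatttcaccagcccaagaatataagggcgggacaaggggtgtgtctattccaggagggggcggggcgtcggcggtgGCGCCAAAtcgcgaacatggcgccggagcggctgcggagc

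The E2F words searched were TTTCCCGC, TTTCGCGC, TTTGCCGC and TTTGGCGC on both strands. The windows of *Cdt1* and *Pole2*, which fell, each held 1 such word, and those of *Orc2* and *Pold2*, which rose, held none at either listed start site. In *Cdt1* the word began 33 bases after the start site and in *Pole2* 11 bases after it, where the start site is counted as 1. An E2F word was present in 16 of the 41 members with an entry (39%) and in 704 of 27025 genes of the whole table (2.60%). Over the first listed window of each gene, the median GC content was 62.3% in the members and 52.7% in all genes. The part of base composition in the difference in E2F words was not tested. Among members with an entry, the word was present in 4 of 7 that fell (*Cdt1*, *Mcm7*, *Orc3* and *Pole2*), in 2 of 12 that rose (*Mcm5* and *Pold1*) and in 10 of 22 that did not pass the test. *Mcm6* had 3 words in its window, of which a pair overlapped, more than any other member. The word CCAAT, the site of the factor NF-Y, was present on either strand in 24 of the 41 members (58.5%) and in 41.1% of all genes. It was present in 1 of the 7 members that fell, in 8 of the 12 that rose and in 15 of the 22 that did not pass. The words TTTGAA and TTCGAA, known as the CHR element of mitotic promoters, were present in 9 members (22.0%) and in 21.7% of all genes, with 2 of 7, 2 of 12 and 5 of 22 in the same order. A match is a run of letters and was not tested as a binding site.

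The total was between 39079582 and 45504570 estimated counts per library. *Eif3e* was measured at 173, 150 and 152 CPM in the cKO libraries and at 424, 401 and 392 CPM in the control libraries, a log2 fold change of -1.36 with a standard error (SE) of 0.0657 (adjusted p = 6.71e-07, edgeR), so the targeted gene went the way of the labels. CPM stands for counts scaled to the size of the library. The p-values were adjusted by the method of Benjamini and Hochberg over the 13296 genes tested. "Rose" and "fell" are used below for an adjusted p under 0.05. B cell markers were present in every library, with a sum of 4611 to 4964 CPM. The sum of 10 fibroblast markers, which the feeder cells could bring, was 99.6 to 125 CPM in cKO and 77.0 to 142 CPM in control libraries, with *Lum* and *Postn* at 0, and T cell markers summed to at most 0.355 CPM. The *Xist* count was 53272 or more for 1 cKO library (replicate 2) and 2 control libraries (replicates 1 and 2), and 16 or less for the remaining 3. With its level as a covariate, 2 of the 24 members that passed the test, *Orc3* and *Rfc1*, no longer passed. In bulk samples, fewer cells of a type and less RNA per cell cannot be told apart.

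The summed level of the replication machinery overlapped between the groups, while single members moved in both directions. Of the 50 members, 16 rose and 8 fell in cKO iGCBs, and 26 did not pass the test. Of all genes tested, 24.1% rose and 24.5% fell. The share of members that rose was thus 32.0% and the share that fell 16.0%. With a fold change over 1.5 as well, *Orc2* rose and *Cdt1* and *Pole2* fell, against 10.4% of all genes higher and 10.6% lower at these cutoffs. The median log2 fold change was 0.04 over the members and 0.00 over all genes, and with a library left out that of the members ranged from 0.015 (without control replicate 2) to 0.064 (without cKO replicate 3 or control replicate 1), with 0.026 without cKO replicate 2. The log2 fold changes of the members ranged from -0.86 to 1.30. The values of the groups did not overlap for 26 members, beside 58.7% of all genes tested. Summed over the 50 members, the level was 7106, 7566 and 7129 CPM in the cKO libraries and 7296, 6840 and 7297 CPM in the control libraries. The groups overlapped in this sum, which was 0.688% to 0.748% of all counts in a library.

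**Figure D1:**
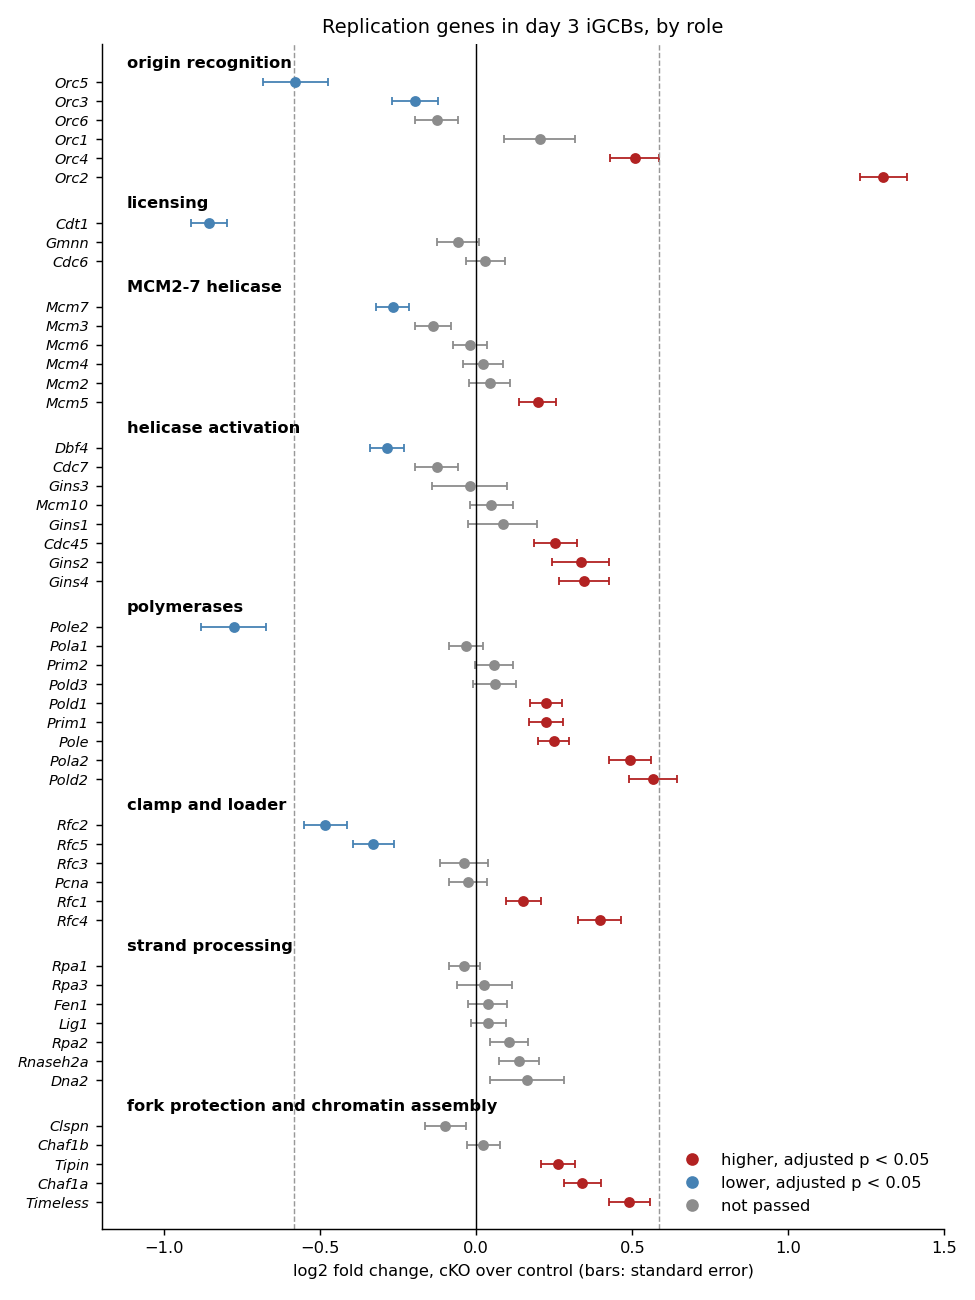
Log2 fold change of each of the 50 replication genes, cKO over control, by role group, with bars for the standard error of the edgeR fit and dashed lines at 1.5-fold. Red members rose and blue members fell at an adjusted p under 0.05, and *Orc2* at 1.30 and *Cdt1* at -0.86 are the farthest from 0.

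Among the subunits of the origin recognition complex, which marks the sites where replication can start, *Orc2* and *Orc4* rose and *Orc5* and *Orc3* fell. *Orc2* (chr1:58462771-58505113 on GRCm38.p6, from RefSeq) had 116, 135 and 126 CPM in the cKO libraries and 53.8, 46.7 and 52.3 CPM in the control libraries. Every cKO library was above every control library. *Orc2* had the largest change of the group and the highest mean CPM over all 6 libraries, although in control iGCBs *Orc3* at 77.5 CPM and *Orc6* at 67.5 CPM were above it. The means were 126 ± 9.52 and 50.9 ± 3.73 CPM (SD, n = 3), a fold of 2.47 with a log2 fold change of 1.30 (SE 0.0751, adjusted p = 1.58e-06, edgeR). *Orc4* rose by 0.51 on the log2 scale (adjusted p = 0.000411, edgeR), and its groups did not overlap either. *Orc5*, which encodes another ATP-binding subunit, fell from 31.3 ± 3.63 to 21.0 ± 1.37 CPM (SD, n = 3), which is a log2 fold change of -0.58 (adjusted p = 0.00114, edgeR), just under 1.5-fold. *Orc3* had a log2 fold change of -0.20 with an adjusted p of 0.0485 in edgeR, close to the threshold, and DESeq2 gave 0.0509. With cKO replicates 2 or 3 or any control replicate left out, its adjusted p was 0.0733 to 0.155. *Orc1* at 0.20 and *Orc6* at -0.13 on the log2 scale did not pass, although *Orc6* did without control replicate 2 (log2 fold change -0.20, adjusted p = 0.04, edgeR).

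Exons of *Orc2* share 1150 bases, 29.8% of its exon length in GENCODE M21, with *Nif3l1* on the opposite strand, and whether counting used strand was not given in the sources used here. *Nif3l1* was measured at 20.9 to 26.3 CPM in the cKO libraries and 22.6 to 25.9 CPM in the control libraries, with a log2 fold change of -0.06 (adjusted p = 0.685, edgeR). The level of *Nif3l1* in every library was below that of *Orc2*, and its groups overlapped.

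Levels of different genes were compared per kilobase of transcript, from the length linked to each RefSeq transcript in GENCODE M21. On this scale the order of the ORC subunits in control iGCBs was *Orc6* (52.2 ± 4.36 CPM per kilobase), *Orc3* (34.2 ± 0.35), *Orc5* (15.0 ± 1.77), *Orc2* (14.5 ± 1.15), *Orc1* (8.95 ± 0.876) and *Orc4* (8.15 ± 0.256; all SD, n = 3). The control values of *Orc5* and *Orc2* overlapped, as did those of *Orc1* and *Orc4*. In cKO iGCBs the order was *Orc6* (48.1 ± 1.55 CPM per kilobase), *Orc2* (35.5 ± 2.60), *Orc3* (29.8 ± 2.96), *Orc4* (11.3 ± 0.18), *Orc1* (10.3 ± 1.29) and *Orc5* (10.0 ± 0.629; all SD, n = 3). *Orc5* thus moved from the third to the last place and *Orc2* from the fourth to the second, where its values of 32.8, 38.0 and 35.7 CPM per kilobase overlapped those of *Orc3* at 32.9, 29.5 and 27.0. In cKO iGCBs the values of *Orc1* overlapped those of both *Orc4* and *Orc5*.

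Of the licensing factors, which load MCM2-7 onto origins, *Cdt1* fell and *Cdc6* and *Gmnn* did not pass the test. *Cdt1* (chr8:122568015-122573130 on GRCm38.p6) was measured at 104, 117 and 108 CPM in the cKO libraries and at 200, 193 and 202 CPM in the control libraries. The groups stood apart by more than the whole range within either group. Its mean was 109.5 ± 6.77 CPM for cKO against 198 ± 4.52 CPM for control (SD, n = 3), a fold of 0.552 with a log2 fold change of -0.86 (SE 0.0575, adjusted p = 2.90e-06, edgeR). *Cdt1* was the member with the largest fall, and it also had the highest CPM of the licensing group. *Gmnn*, whose product inhibits CDT1, had means of 61.8 ± 3.41 CPM (cKO) and 64.4 ± 3.27 CPM (control) (SD, n = 3), which is a log2 fold change of -0.06 (adjusted p = 0.499, edgeR). *Cdc6*, which encodes the ATPase that works beside CDT1, had a log2 fold change of 0.03 (adjusted p = 0.735, edgeR).

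**Figure D2:**
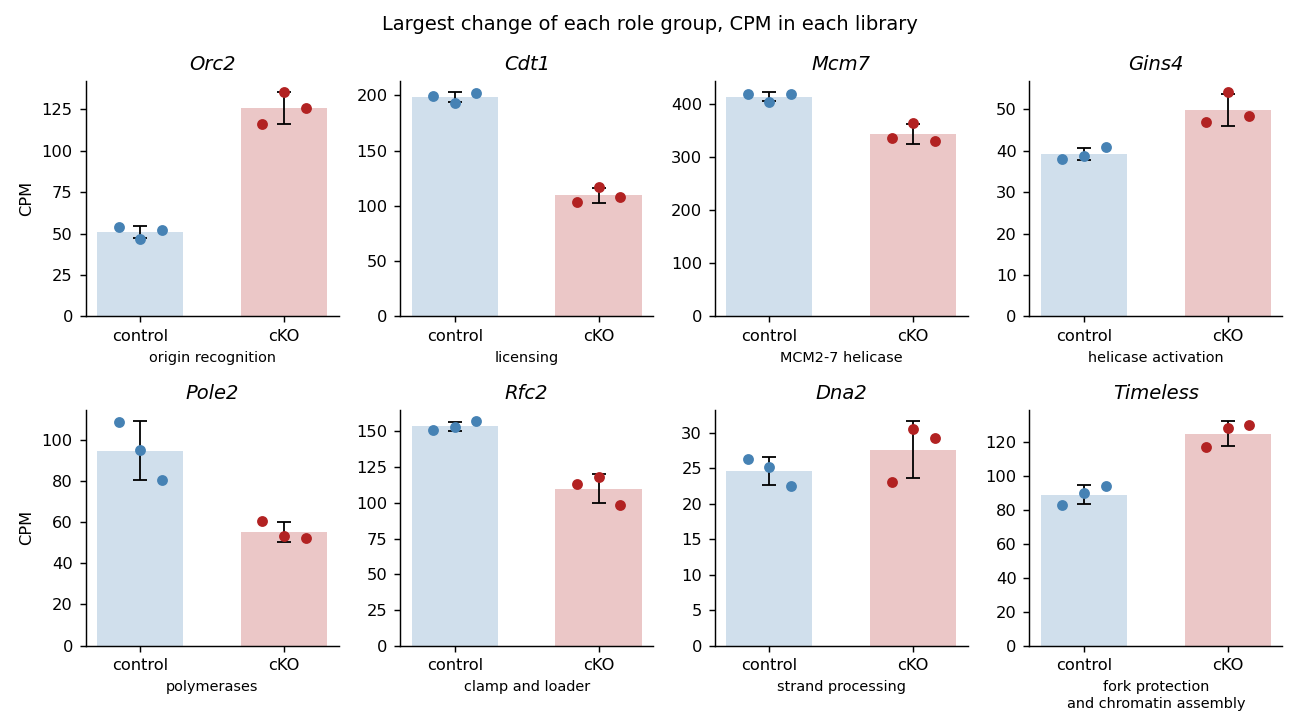
CPM of the member with the largest absolute log2 fold change in each role group, with a point for each of 3 control and 3 cKO libraries, bars for the mean and error bars for the SD. The groups do not overlap for *Orc2*, *Cdt1*, *Mcm7*, *Gins4*, *Pole2*, *Rfc2* and *Timeless*, and they overlap for *Dna2*, which did not pass the test.

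The 6 genes of the MCM2-7 ring, whose products unwind DNA as 1 hexamer, changed little. *Mcm5* rose, *Mcm7* fell, and *Mcm2*, *Mcm3*, *Mcm4* and *Mcm6* did not pass the test. *Mcm7*, with the largest change of the group, had 336, 364 and 329 CPM in the cKO libraries and 418, 403 and 417 CPM in the control libraries. No cKO library reached the lowest control library. The log2 fold change was -0.27 (SE 0.053, adjusted p = 0.00201, edgeR), or a fold of 0.831. *Mcm6*, with the highest CPM of the group, had 607, 642 and 595 CPM in the cKO libraries and 646, 582 and 640 CPM in the control libraries. These values overlapped, and the log2 fold change was -0.02 (SE 0.0547, adjusted p = 0.80, edgeR). *Mcm5* rose by 0.20 on the log2 scale (adjusted p = 0.0185, edgeR), a call lost without cKO replicate 2, control replicate 1 or control replicate 2 (adjusted p = 0.0676, 0.0572 and 0.071). *Mcm3* at -0.14 passed without cKO replicate 2 or control replicate 2 (adjusted p = 0.0289 and 0.0329, edgeR). Exons of *Mcm7* overlap *Ap4m1* and *Cops6* on the opposite strand, which share 7.3% and 1.4% of its exon length, and *Ap4m1* fell by 0.40 and *Cops6* rose by 0.32 on the log2 scale.

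Per kilobase, *Mcm6* was the highest of the 6 subunits in control iGCBs at 210 ± 11.7 CPM per kilobase, followed by *Mcm3* at 183 ± 9.05, *Mcm7* at 140 ± 3.01, *Mcm5* at 132 ± 7.46, *Mcm4* at 108 ± 7.90 and *Mcm2* at 82.0 ± 3.75 (SD, n = 3). The control values of *Mcm7* and *Mcm5* overlapped, and those of the other neighbours in this order did not. In cKO iGCBs *Mcm5* was above *Mcm7* in every library, at 151 ± 7.53 against 116 ± 5.99 CPM per kilobase (SD, n = 3), and *Mcm7* overlapped *Mcm4* at 109 ± 4.75. Over all 50 members, *Pcna* had the highest level per kilobase in control iGCBs, at 286 ± 21.7, and *Dna2* the lowest mean, at 6.02 ± 0.485 (SD, n = 3), although its values overlapped those of *Gins3*. In cKO iGCBs *Gins3* had the lowest mean.

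**Figure D3:**
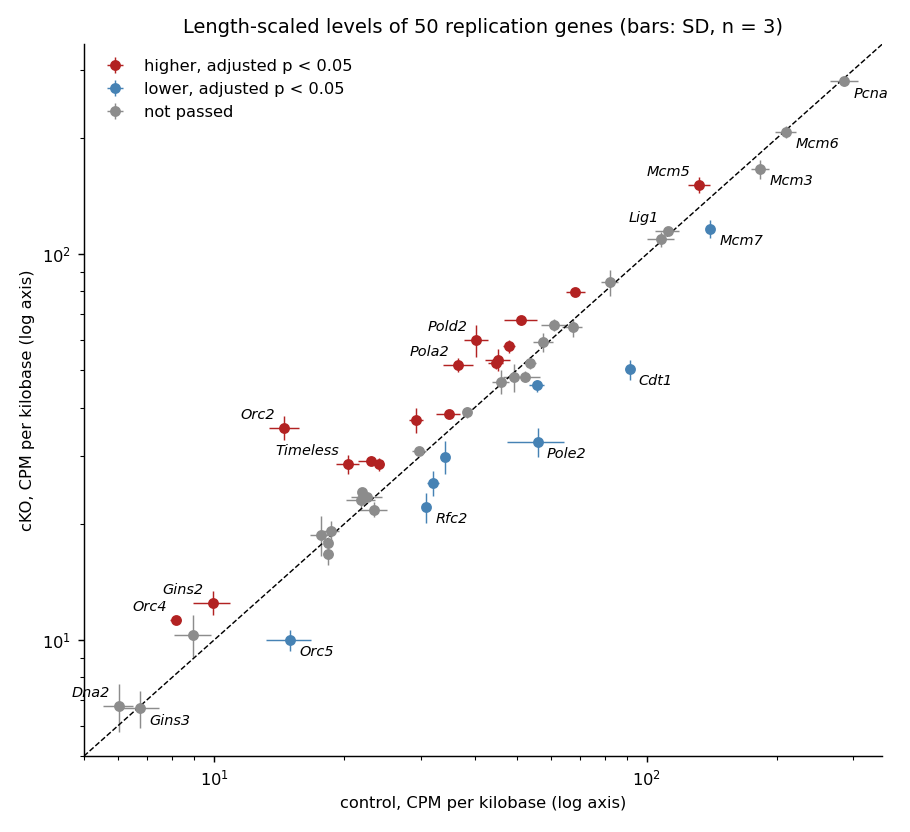
Mean level of each of the 50 members in control and in cKO iGCBs in CPM per kilobase, both on log axes, with bars for the SD over 3 libraries and a dashed line of equal level. Most members lie near the line from *Dna2* to *Pcna*, with *Orc2* above it and *Cdt1*, *Pole2* and *Orc5* below it.

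Of the 8 genes that turn the loaded ring into the active helicase, 3 rose (37.5%), 1 fell (12.5%) and 4 did not pass the test. Over all genes tested, 24.1% rose and 24.5% fell. *Gins4*, *Gins2* and *Cdc45*, which encode parts of the active helicase, rose by 0.34, 0.33 and 0.25 on the log2 scale. *Gins4*, with the largest change, had 47.0, 54.1 and 48.3 CPM in the cKO libraries and 38.1, 38.7 and 40.9 CPM in the control libraries. Its groups did not overlap (SE 0.0789, adjusted p = 0.0046, edgeR). *Dbf4*, the activator of the CDC7 kinase and the member of this group with the highest CPM, had 106, 108 and 113 CPM in the cKO libraries and 139, 130 and 130 CPM in the control libraries. All cKO values were below all control values, and the log2 fold change was -0.28 (SE 0.0541, adjusted p = 0.00154, edgeR). *Cdc7* had a log2 fold change of -0.13 and did not pass (adjusted p = 0.161, edgeR), although its groups did not overlap. *Gins1* at 0.09, *Mcm10* at 0.05 and *Gins3* at -0.02 on the log2 scale did not pass. *Gins2* shares 67.3% of its exon length with *Gse1* on the opposite strand, which fell by 1.45 on the log2 scale, in the direction opposite to *Gins2*. *Cdc45* shares 6.0% with *Ufd1*, which did not pass. Without cKO replicate 2 the adjusted p was 0.0503 for *Gins2* and 0.0608 for *Cdc45* (edgeR), and neither passed.

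Of the 9 polymerase genes, 5 rose (55.6%), 1 fell (11.1%) and 3 did not pass the test. Over all genes tested, 24.1% rose and 24.5% fell. *Pold2* and *Pola2*, which encode accessory subunits of polymerases delta and alpha, rose by 0.57 and 0.49 on the log2 scale. *Pold2* was measured at 88.4, 107 and 98.1 CPM in the cKO libraries and at 69.5, 67.1 and 61.6 CPM in the control libraries. Its fold of 1.48 lay just under the cutoff of 1.5. *Pole* (0.25), *Prim1* (0.22) and *Pold1* (0.22) also rose on the log2 scale. *Pold1*, the catalytic subunit of polymerase delta and the polymerase gene with the highest CPM, had 273, 274 and 275 CPM in the cKO libraries and 223, 234 and 248 CPM in the control libraries. The cKO libraries lay within a narrow band above the highest control library (SE 0.0514, adjusted p = 0.00483, edgeR).

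*Pole2* was the only polymerase gene of the list to fall. It encodes the B subunit of polymerase epsilon, at chr12:69201773-69228205 on GRCm38.p6, and it had 60.8, 53.2 and 52.1 CPM in the cKO libraries and 109, 95.3 and 80.4 CPM in the control libraries. The control libraries were more spread than the cKO libraries, and the groups did not overlap. The means were 55.4 ± 4.73 and 94.8 ± 14.2 CPM (SD, n = 3), a fold of 0.584 with a log2 fold change of -0.78 (SE 0.104, adjusted p = 0.000174, edgeR). Tested against a change of 1.5-fold itself, *Orc2* and *Cdt1* passed (adjusted p = 3.83e-05 and 0.00206, glmTreat) and *Pole2* did not. The catalytic subunit *Pole* moved the other way, from 171 ± 4.00 to 203 ± 7.99 CPM (SD, n = 3). *Pola1*, *Prim2* and *Pold3* had log2 fold changes of -0.03, 0.06 and 0.06 and did not pass.

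Among the clamp and its loader, *Pcna* did not pass the test while 4 of the 5 RFC subunits did, in opposite directions. In this group of 6 genes, 33.3% rose and 33.3% fell, beside 24.1% and 24.5% of all genes tested. *Pcna*, the sliding clamp and the member of the group with the highest CPM, had 413, 437 and 420 CPM in the cKO libraries and 453, 394 and 447 CPM in the control libraries. The groups overlapped, and the log2 fold change was -0.03 (SE 0.0612, adjusted p = 0.746, edgeR). *Rfc2* had 113, 118 and 98.4 CPM in the cKO libraries and 151, 153 and 157 CPM in the control libraries. It was lower in every cKO library than in any control library, with a log2 fold change of -0.48 (SE 0.0689, adjusted p = 0.000254, edgeR). *Rfc5* also fell, by 0.33 on the log2 scale, while *Rfc4* rose by 0.39 and *Rfc1*, the large subunit, by 0.15. The adjusted p of *Rfc1* was 0.0479 in edgeR, close to the threshold, and it was 0.0835 to 0.198 with any cKO replicate or control replicates 1 or 2 left out. *Rfc3* had a log2 fold change of -0.04 and did not pass.

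Of the 4 loader subunits that passed, 3 overlap genes on the opposite strand that moved the same way. *Rfc2* shares 15.1% of its exon length with *Lat2*, which fell by 0.38 on the log2 scale. *Rfc5* shares 10.7% with *Wsb2*, which fell by 0.81. *Rfc4* shares 12.7% with *Eif4a2*, which rose by 0.37 and was measured at 329 to 469 CPM, above the level of *Rfc4* in every library. *Rfc1* shares exons with no other annotated gene. Without strand, reads of overlapping genes cannot be told apart, and the part of the neighbours in these changes was not tested. Over the whole list, exons of 14 members overlap those of a gene in the table.

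None of the 7 genes that protect or finish the new strands passed the test, and their log2 fold changes lay between -0.04 and 0.16. Over all genes tested, 24.1% rose and 24.5% fell. *Lig1*, which encodes the ligase that seals Okazaki fragments and had the highest CPM of the group, was measured at 349, 360 and 350 CPM in the cKO libraries and at 340, 324 and 368 CPM in the control libraries. These values overlapped (log2 fold change 0.04, SE 0.0557, adjusted p = 0.599, edgeR). *Dna2*, a nuclease and helicase that trims long flaps, had the largest change, with 23.1, 30.6 and 29.3 CPM in the cKO libraries and 26.3, 25.2 and 22.5 CPM in the control libraries. Here too the groups overlapped (log2 fold change 0.16, SE 0.118, adjusted p = 0.285, edgeR). *Rnaseh2a*, the catalytic subunit of RNase H2, did not overlap between groups at a log2 fold change of 0.14 but did not pass (adjusted p = 0.106, edgeR). The RPA genes *Rpa1*, *Rpa2* and *Rpa3* had log2 fold changes of -0.04, 0.11 and 0.03, and the flap nuclease gene *Fen1* had 0.04.

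Of the fork protection and chromatin assembly genes, *Timeless*, *Chaf1a* and *Tipin* rose and *Clspn* and *Chaf1b* did not pass the test. *Timeless* had 117, 128 and 130 CPM in the cKO libraries and 82.9, 90.1 and 93.9 CPM in the control libraries. The lowest cKO library was above the highest control library, with a log2 fold change of 0.49 (SE 0.0656, adjusted p = 0.000169, edgeR). *Tipin*, whose product forms a complex with TIMELESS at the fork, rose by 0.26 on the log2 scale. *Chaf1a*, the large subunit of CAF-1 and the member of this group with the highest CPM, had 160, 166 and 156 CPM in the cKO libraries and 132, 117 and 131 CPM in the control libraries. Its groups did not overlap (log2 fold change 0.34, SE 0.0599, adjusted p = 0.000972, edgeR). *Chaf1a* shares 52.5% of its exon length with *Ubxn6* on the opposite strand, which had a log2 fold change of -0.08 and did not pass. *Chaf1b*, the middle subunit, had a log2 fold change of 0.02, and *Clspn*, which encodes the checkpoint mediator claspin, had -0.10.

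The deposited table of RefSeq transcripts was used to ask whether the transcripts of a member changed unequally. It listed 1 transcript for 32 members and 2 or more for 18, all of which could be tested. With the gene-level Simes test of edgeR, 0 of these 18 members passed an adjusted p of 0.05, beside 1.61% of the 2990 genes tested. At an unadjusted p under 0.05 there were 4 members, *Lig1*, *Pola2*, *Orc6* and *Fen1*. By the F test of the same fit 2 members, *Lig1* and *Pola2*, had an adjusted p under 0.05. The share of all genes past either criterion was not taken, so these counts could not be set beside it. The transcript NM_001164057 of *Pola2* took 18.4%, 17.0% and 15.1% of the gene's counts in the cKO libraries, against 9.39%, 7.20% and 9.31% in control. The groups did not overlap in this share, but the adjusted p was 0.0689 by the Simes test and 0.0197 by the F test of edgeR. The transcript NM_001083188 of *Lig1* took 13.4%, 12.3% and 6.06% of its counts in the cKO libraries, against 4.44%, 2.40% and 2.92% in control, with an adjusted p of 0.0656 by the Simes test and 0.0205 by the F test of edgeR. *Cdt1*, *Pole2*, *Pold2* and *Orc5* were each listed with 1 transcript. *Orc2* had 2 transcripts above the filter, and the main one, NM_008765, held 69.2% to 80.3% of its counts in the cKO libraries and 64.0% to 79.1% in the control libraries (adjusted p = 0.967, Simes test of edgeR). Transcript counts are estimates made by StringTie and depend on reads that fall on the parts in which transcripts differ.

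Other genes of the pathway were described from 3 further lists. Of 37 other replication genes, 15 rose (40.5%) and 5 fell (13.5%), beside 24.1% and 24.5% of all genes tested. The median log2 fold change of the list was 0.16. The largest changes were the rises of *Asf1a*, a histone chaperone that hands histones to CAF-1, of *Mcmbp*, which binds MCM proteins, and of *Chtf8*, a subunit of an alternative clamp loader. *Asf1a* had 92.0, 94.6 and 92.4 CPM in the cKO libraries and 47.9, 47.9 and 45.6 CPM in the control libraries (log2 fold change 0.98, adjusted p = 1.30e-06, edgeR). *Mcmbp* rose by 0.73 and *Chtf8* by 0.69 on the log2 scale. These 3 genes did not overlap between groups.

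Of 12 genes of deoxynucleotide metabolism (the nucleotide supply list), 3 rose (25%) and 4 fell (33.3%), beside 24.1% and 24.5% of all genes tested. The median log2 fold change of the list was 0.01. The list includes *Samhd1*, which encodes an enzyme that breaks deoxynucleotides down and was among those that fell (log2 fold change -0.24). *Dctd*, which encodes dCMP deaminase, rose by 1.37, and *Shmt1*, an enzyme of folate metabolism, rose by 1.16 on the log2 scale. *Rrm2b*, the p53-inducible small subunit of ribonucleotide reductase, had a log2 fold change of -0.87 (adjusted p = 0.00039, edgeR).

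The mitosis list moved differently from the replication list in its counts. *Top2a* is in both the mitosis list and the list of other replication genes. Of 30 mitosis genes, 19 fell (63.3%) and 1, *Kif11*, rose (3.33%), beside 24.5% and 24.1% of all genes tested. The median log2 fold change of the list was -0.39. By more than 1.5-fold, 10 of the 30 fell, beside 10.6% of all genes tested. *Ccnb2*, a mitotic cyclin gene, had 56.8, 57.1 and 57.7 CPM in the cKO libraries and 131, 130 and 120 CPM in the control libraries (log2 fold change -1.15, adjusted p = 6.57e-07, edgeR). *Cenpf* and *Cenpe*, which encode kinetochore proteins, fell by 1.04 and 0.90 on the log2 scale. The difference between the lists was not tested. No measure of the share of cells in each phase of the cell cycle was analysed here.

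**Figure D4:**
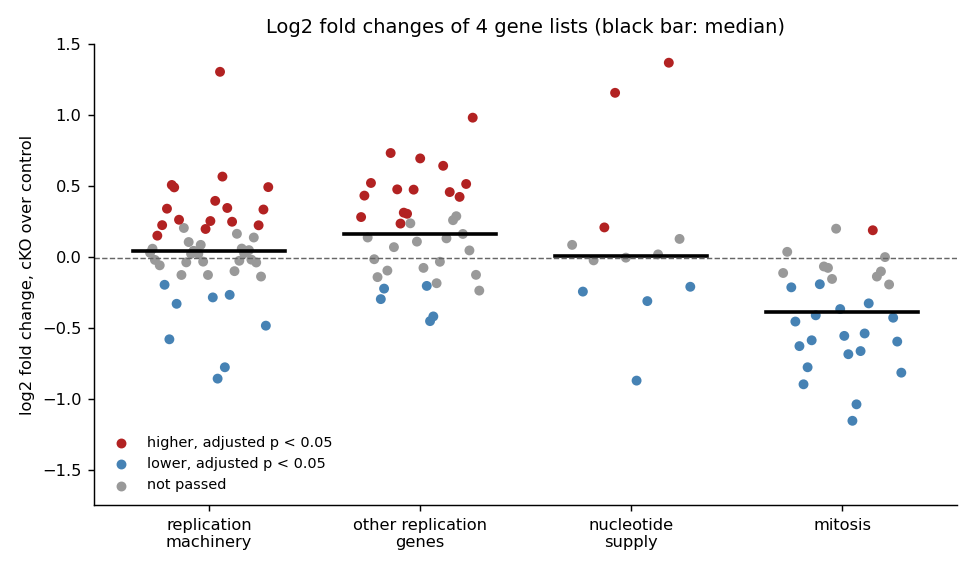
Log2 fold change, cKO over control, of each tested gene of the replication machinery (50 genes), other replication genes (37), nucleotide supply (12) and mitosis (30), with a black bar for the median of each list and a dashed line for the median of all genes tested. The points of the replication machinery lie on both sides of 0 around a median of 0.04, and most points of the mitosis list lie below 0 around a median of -0.39. *Top2a* is plotted under both other replication genes and mitosis.

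Markers of other cells were also read. Of the 7 fibroblast markers tested, *Fn1* rose, from 19.2 ± 4.84 CPM in control to 40.3 ± 5.79 CPM in cKO libraries (SD, n = 3), and the other 6 did not pass. Of the 3 myeloid markers tested, *Adgre1* rose, from 1.18 ± 0.735 to 4.62 ± 0.953 CPM (SD, n = 3). Of the 7 B cell markers tested, 3 rose and 4 fell, and of 7 germinal center B cell markers *Fas* rose and 4 fell, among them *Bcl6* by 0.32 on the log2 scale. Over all genes tested, 24.1% rose and 24.5% fell. The part of these cells or of the B cell stage in the values of the replication genes was not tested.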

How the data were processed

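Bulk RNA-seq of 3 cKO and 3 control libraries of day 3 YFP+ iGCBs was analysed, grouped by the sample titles. The authors aligned reads to mm10 with HISAT2, quantified them with StringTie and deposited estimated counts, 1 table by gene and 1 by RefSeq transcript, which are whole numbers without normalization. Tool versions, the read length setting and the use of strand in counting are not given in the sources used here. Because StringTie turns coverage into counts, the totals of 39079582 to 45504570 per library are not numbers of fragments, and the floor of 3 counts (0.0661 to 0.0763 CPM) covers counting error only. All 50 members were far above it.

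Counts were fitted in R 4.3.3 with edgeR 4.0.16: filterByExpr with a minimum count of 10, TMM, and the quasi-likelihood test between the groups with no covariate, adjusted by Benjamini-Hochberg. The cutoffs were an adjusted p of 0.05 and, as a second step, 1.5-fold. Standard errors were the absolute log2 fold change over the square root of F. Transcripts were assigned to genes through RefSeq for 34674 of 36026 transcripts and tested with diffSpliceDGE. The fits were tested on simulated data. The limit first set for the share of changed genes recovered was not met at gene level, mainly for genes with low counts, and was replaced by a limit on false calls. For transcripts, the default quasi-likelihood fit had been run on the data before its simulated data showed too many false calls, and the other setting of edgeR (legacy = FALSE) was then used. The default called 41 genes in place of 48, and 0 members by either.

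The members and lists were chosen with earlier results of these data known. Every member is named. Values in each library are given for members past both cutoffs and, in each role group, for the member with the highest CPM and the one with the largest change. *Pold2*, *Asf1a* and *Ccnb2* were given in each library as well, after their values were seen. Of the other lists, the 3 largest changes past the test are named. *Kif11*, *Samhd1*, *Top2a*, the markers and the genes that overlap members were named after their values were seen. Members were compared with all genes by counts and medians only. For a single value, the smallest p of an exact permutation test of 3 libraries against 3 is 0.1. Alternatives were the size factors of DESeq2, total counts only, DESeq2 1.42.0 as the tool, no filter, at least 10 counts in every sample, library sizes without immunoglobulin genes, a replicate block, *Xist* as a covariate, and each library left out in turn.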

Additional observations from a re-analysis of the deposited data

How the results depend on the processing

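Of the 24 members that passed the test, 19 passed under every alternative and none of the 50 changed direction while past the threshold. *Orc3*, *Rfc1*, *Mcm5*, *Cdc45* and *Gins2* lost the call under at least 1 alternative, and *Mcm3* and *Orc6* gained one with a library left out. Without cKO replicate 2, 5 members lost the call. The labels share replicate numbers 1 to 3. The correlation of deviations was 0.001, 0.114 and 0.216 for matched numbers and -0.291 to 0.219 for unmatched ones. With 3 libraries per group, these values cannot settle whether the samples were paired. The main fit did not pair them, while the paper used paired t tests for proliferation, death and surface proteins of iGCBs. With the replicate block, *Rfc1* alone lost its call at gene level. Members lower by over 1.5-fold went from 2 to 1 in the test against 1.5-fold (*Pole2* lost) and ranged from 2 to 3 with a library left out (3, with *Orc5* added, without cKO replicate 2, control replicate 2 or control replicate 3). Members higher by over 1.5-fold went from 1 to 2, with *Pold2* added, with *Xist* as a covariate, and ranged from 1 to 2 with a library left out (2 without cKO replicate 1 or control replicate 1). Other replication genes that fell ranged from 3 to 6 with a library left out, where 5 fell in all libraries (3 without cKO replicate 1 or control replicate 1), and mitosis genes that rose from 0 (without control replicate 3) to 1. Members with changed transcript use went from 0 to 3 without a filter (*Lig1*, *Mcm6*, *Pola2*), to 2 by the F test, to 1 with the replicate block and to 1 without cKO replicate 3 (both *Lig1*). The share of all genes in these settings was not taken. The default quasi-likelihood fit gave 0, and the main setting replaced it after the data were seen. The cause of these changes was not tested, and a fit with a library left out also has fewer libraries. The lowest level of a member in any library was 15.0 CPM, and the part of depth in the calls was not tested.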
